A study of Sus scrofa with 64 samples.

Results

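The neurohypophysis, the rear lobe of the pituitary gland, was set against the hypothalamus, the brain region above it, in the same pigs. The arrays were chosen by their tissue labels alone, as 4 neurohypophysis and 4 hypothalamus arrays paired by animal, which makes 8 of the 64 arrays of the series. All 23935 pig probes of the Affymetrix porcine array were tested, and 9815 of them carry a usable gene name, for 6592 named genes. The whole study measured 16 tissues in 4 pigs of 2 breeds. Its animals were a Large White male of 38.8 kg and a Large White female of 36.2 kg, both 87 days old, and an Iberian male of 25.4 kg and an Iberian female of 32.8 kg, both 89 days old. They were kept at the same time after weaning, were given the same diets, received no treatment and were euthanized by an anaesthetic overdose. Each combination of breed and sex is 1 animal, so breed, sex and individual cannot be told apart for a single array. The hypothalamus was dissected without the optic chiasm, whereas no source says how the lobes of the pituitary were parted.

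The pituitary joins tissues of different origin. The neurohypophysis grows down from the floor of the brain and holds the endings of hypothalamic axons, which release vasopressin and oxytocin, and pituicytes, glial cells that surround those endings. The adenohypophysis comes from the roof of the mouth and makes the other pituitary hormones in epithelial cells, and in many mammals its intermediate part, whose melanotrophs make POMC, lies against the neural lobe.

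Expression is given as RMA signal on the log2 scale, a scale without a true zero, and every difference is neurohypophysis minus hypothalamus in log2 units, with the standard error (SE) of the paired fit. A difference was called where limma's adjusted p, with the animal as a block, was under 0.05. Of all pig probes, 5324 were called higher and 4458 lower in the neurohypophysis, which is 22.2% and 18.6%, and the median difference over all probes was 0.01. By at least 1 log2 unit, 1428 probes (5.97%) were higher and 1607 (6.71%) lower. With 1 probe per named gene, the brightest, 25.9% of genes were higher and 23.1% lower, and these shares are the background for each gene list below. Arrays of the neurohypophysis correlated with each other at 0.982 to 0.988 over all probes and hypothalamus arrays at 0.974 to 0.988, while arrays of different tissues of the same animal correlated at 0.905 to 0.925. In whole tissue, fewer cells of a type and less RNA per cell cannot be told apart.

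**Figure D1:**
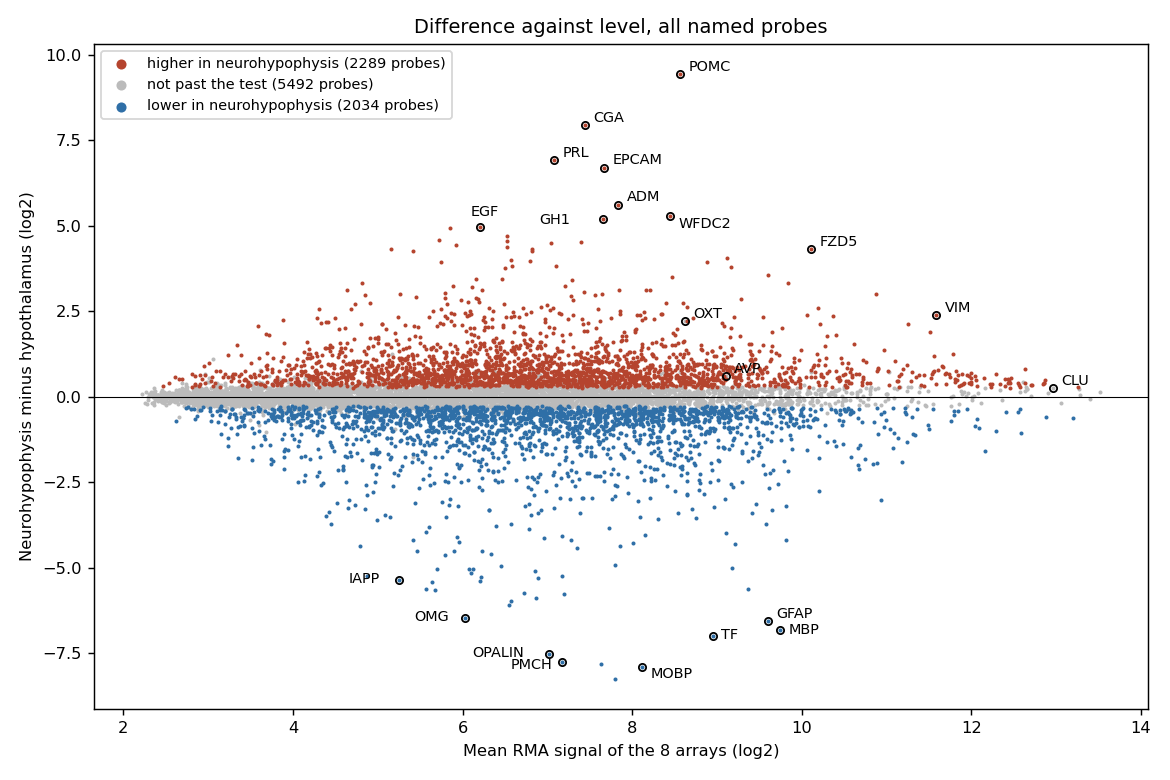
Difference between neurohypophysis and hypothalamus (log2, vertical axis) against the mean RMA signal of the 8 arrays (log2, horizontal axis), 1 point per named probe, coloured by the result of the test. POMC lies at the top with a difference of 9.44, MOBP, OPALIN and PMCH lie near the bottom, and AVP and OXT did not pass the test.

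The 3 marker genes moved in opposite ways. They were chosen with earlier results of these data known and so give no independent check of the labels. POMC, the precursor of corticotropin and melanotropin, had 13.86, 13.46, 12.88 and 12.90 in the neurohypophysis of the Large White male, the Large White female, the Iberian male and the Iberian female, against 3.82, 4.38, 3.70 and 3.46 in the hypothalamus of the same animals. GFAP, the intermediate filament of astrocytes, had 6.12, 5.46, 6.25 and 7.43 in the neurohypophysis and 13.19, 12.79, 12.34 and 13.19 in the hypothalamus, with the animals in the same order, which holds for all groups of 4 values below. MOBP, a myelin protein of oligodendrocytes, had 3.28, 3.25, 5.63 and 4.47 in the neurohypophysis and 11.98, 12.01, 12.06 and 12.26 in the hypothalamus. No neurohypophysis array came near a hypothalamus array for any of these genes. The differences were 9.44 ± 0.16 (SE) for POMC (adjusted p = 9.7e-07), -6.56 ± 0.26 for GFAP (5.7e-06) and -7.92 ± 0.37 for MOBP (9.5e-06). The arrays labelled neurohypophysis thus carried a hormone of epithelial pituitary cells at the highest mean of the 16 tissues, and neither astrocyte filament nor myelin transcripts at the level of the hypothalamus.

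All 7 pituitary hormone genes with a named probe were higher in the neurohypophysis than in the hypothalamus, and no array overlapped between tissues for any of them, where 45.6% of named genes had no overlap. Their median difference was 5.21, beside 0.01 over all probes. CGA, the alpha subunit shared by the glycoprotein hormones, averaged 11.41 ± 0.49 in the neurohypophysis and 3.47 ± 0.11 in the hypothalamus (SD, n = 4 each; difference 7.94, adjusted p = 1.3e-06). PRL, or prolactin, had 11.26, 10.77, 8.03 and 12.10 in the neurohypophysis and 3.40, 3.29, 4.59 and 3.21 in the hypothalamus (difference 6.92 ± 0.79 SE, adjusted p = 0.00049). The Iberian male had the lowest neurohypophysis value and the highest hypothalamus value for PRL. GH1, growth hormone, had 12.37, 11.44, 5.84 and 11.39 in the neurohypophysis and 5.06, 5.02, 5.02 and 5.10 in the hypothalamus (difference 5.21 ± 0.97 SE, adjusted p = 0.0047). The Iberian male alone thus stood within 1 log2 unit of the hypothalamus for GH1, although its POMC was as high as that of the Iberian female. Without this animal the difference was 6.67 for GH1 and 8.08 for PRL.

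The subunits of the gonadotropins and of thyrotropin, the hormones that drive the gonads and the thyroid, showed smaller differences. LHB had 9.30, 8.71, 8.34 and 9.65 in the neurohypophysis against 5.69, 5.63, 5.39 and 5.60 in the hypothalamus (difference 3.42, adjusted p = 1.9e-05). FSHB had 5.82, 6.85, 6.12 and 8.83 in the neurohypophysis against 3.90, 3.87, 4.15 and 4.03 in the hypothalamus (2.92, adjusted p = 0.002). In TSHB the neurohypophysis arrays had 4.01, 5.42, 4.49 and 6.08 and the hypothalamus arrays 2.82, 2.65, 2.79 and 2.80 (2.24, adjusted p = 0.0015). For FSHB and TSHB each female was above both males in the neurohypophysis, with 2 animals of each sex.

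**Figure D2:**
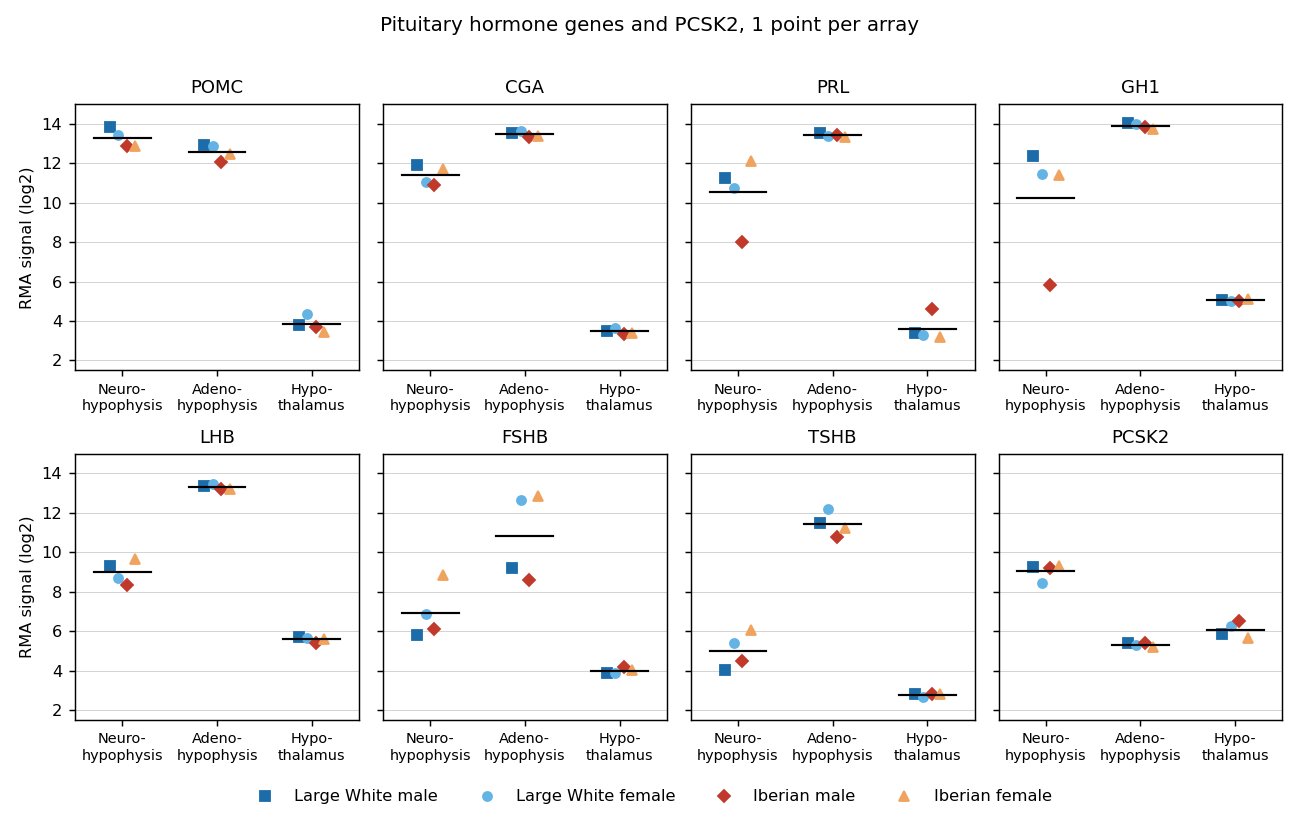
RMA signal (log2, vertical axis) of the 7 pituitary hormone genes and of PCSK2 in the neurohypophysis, the adenohypophysis and the hypothalamus, 1 point per array, with bars at the mean of the 4 animals. POMC and PCSK2 are highest in the neurohypophysis, the other 6 genes are highest in the adenohypophysis, and the Iberian male lies low for GH1 and PRL in the neurohypophysis only.

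To place these levels, the neurohypophysis was also set against the adenohypophysis of the same animals, a comparison that shares the 4 neurohypophysis arrays with the first one. In that fit 3978 probes (16.6%) were higher and 3886 (16.2%) lower in the neurohypophysis. POMC was the 1 hormone gene above the adenohypophysis, with means of 13.28 in the neurohypophysis, 12.58 in the adenohypophysis and 3.84 in the hypothalamus, and a difference of 0.70 from the adenohypophysis (adjusted p = 0.0016, and 0.064 without the animal as a block). The other hormone genes lay between both other tissues. Their differences from the adenohypophysis were -2.07 for CGA, -2.88 for PRL, -3.65 for GH1, -3.92 for FSHB, -4.33 for LHB and -6.43 for TSHB, each past the test. PCSK2, the prohormone convertase that cuts POMC products in melanotrophs, went with POMC. It had 9.28, 8.43, 9.20 and 9.30 in the neurohypophysis, 5.37, 5.28, 5.38 and 5.20 in the adenohypophysis and 5.86, 6.27, 6.53 and 5.65 in the hypothalamus. Its difference was 2.98 ± 0.24 from the hypothalamus (adjusted p = 0.0001) and 3.75 from the adenohypophysis (1.3e-06), and its mean was the highest of the 16 tissues.

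Most regulators of anterior pituitary cells did not pass as higher in the neurohypophysis. Of 10 pituitary transcription factor and receptor genes with a named probe, from 23 listed, 2 (20%) were higher than in the hypothalamus and 0 lower. That is near the 25.9% of all named genes called higher, and the median difference was 0.06. The pair was DRD2, the dopamine D2 receptor of lactotrophs and melanotrophs (difference 1.67, adjusted p = 0.0026), and LHX3, a homeodomain factor of the pituitary primordium (0.49, adjusted p = 0.017, lost without the Large White male or the Iberian female). POU1F1, the factor of somatotrophs, lactotrophs and thyrotrophs, had 3.17, 3.38, 2.93 and 3.33 in the neurohypophysis, 7.84, 7.20, 7.99 and 7.43 in the adenohypophysis and 2.91, 3.05, 2.92 and 3.01 in the hypothalamus. The neurohypophysis and hypothalamus arrays overlapped for POU1F1, and its difference of 0.23 did not pass (adjusted p = 0.11). GNRHR, the receptor of gonadotrophs, averaged 3.10 in the neurohypophysis, 5.86 in the adenohypophysis and 3.0 in the hypothalamus, and GHRHR, that of somatotrophs, averaged 5.32, 7.35 and 5.49 in the same order of tissues. In the adenohypophysis POU1F1, GNRHR and GHRHR were also far below hormones such as PRL (13.42) and GH1 (13.91). Whether a weaker signal of theirs went unread in the neurohypophysis was not tested.

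Of 13 genes for hormone processing and secretory granules, 4 (30.8%) were higher and 4 (30.8%) lower in the neurohypophysis. These shares are near those over all named genes (25.9% and 23.1%). Besides PCSK2, the higher ones were CHGB, a granule protein (3.02 ± 0.12 SE, adjusted p = 6.4e-06), SCG5, the chaperone of PCSK2 (1.04), and GNAS, the stimulatory G protein subunit (1.32, adjusted p = 0.047, lost in 4 alternative settings and when either Iberian animal was left out). Lower in the neurohypophysis were PCSK1, the other POMC convertase (-1.15, adjusted p = 0.00081, but 0.13 when all 64 arrays were fitted together), CPE, carboxypeptidase E (-1.58, 0.00012), SCG3 (-0.61) and IAPP, the amyloid peptide of islet cells (-5.36, 2.6e-05). PCSK1 and PCSK2 thus differed in opposite directions. SCG2, CHGA and PAM, the peptide amidating enzyme, had differences of -0.27, -0.23 and 0.03 and did not pass.

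Epithelial genes were higher as well. Of 19 genes for epithelial cells and their junctions, 14 (73.7%) were higher and 2 lower in the neurohypophysis, with a median difference of 1.40. EPCAM, an adhesion molecule of epithelia, had 11.29, 10.62, 11.11 and 11.04 in the neurohypophysis and 3.88, 3.82, 4.60 and 4.98 in the hypothalamus (difference 6.70 ± 0.20 SE, adjusted p = 2.2e-06). The keratin KRT8 averaged 8.71 ± 0.54 and 4.34 ± 0.37 (SD, n = 4; difference 4.38), and ESRP1, an epithelial splicing factor, averaged 8.32 ± 0.51 and 3.37 ± 0.06 (4.94), neurohypophysis first. KRT18, the partner of KRT8, CDH1, or E-cadherin, and the desmosome gene DSP rose by 3.45, 3.002 and 2.84. In the adenohypophysis the means of EPCAM, KRT8 and ESRP1 were higher still, at 11.55, 10.26 and 9.45. Not every member showed this order. DSP averaged 7.40 in the neurohypophysis and 7.05 in the adenohypophysis, and CLDN4 and ELF3 were also lower in the adenohypophysis. WFDC2, a secreted protease inhibitor of epithelia, and PAPSS2, a sulphate donor enzyme, averaged 11.09 and 8.80 in the neurohypophysis, 11.20 and 8.89 in the adenohypophysis and 5.80 and 4.25 in the hypothalamus. CLDN10 and MAL2 were the members lower than in the hypothalamus, by -2.95 and -1.22. How far epithelial pituitary cells within the neurohypophysis samples set these values was not tested.

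Another set of genes was high in the neurohypophysis against both neighbouring tissues. ADM, the vasodilator peptide adrenomedullin, had 10.54, 10.67, 10.72 and 10.66 in the neurohypophysis, 4.98, 6.0, 6.10 and 5.58 in the adenohypophysis and 4.53, 4.91, 5.64 and 5.01 in the hypothalamus. The neurohypophysis arrays lay within 0.2 log2 units of each other and far above all others, with a difference of 5.62 ± 0.15 (SE) from the hypothalamus (adjusted p = 1.6e-06). EGFL6, a secreted matrix protein with EGF repeats, had 8.43, 9.25, 8.83 and 8.98 in the neurohypophysis, 3.96, 4.20, 4.0015 and 3.82 in the adenohypophysis and 3.95, 4.31, 3.97 and 4.42 in the hypothalamus (4.71 from the hypothalamus, adjusted p = 1.3e-06). STC1, the secreted hormone stanniocalcin, averaged 9.29 in the neurohypophysis, 5.92 in the adenohypophysis and 4.79 in the hypothalamus. These 3 genes had their highest mean of the 16 tissues in the neurohypophysis, and the next tissue was 2.04 below for ADM (back fat), 3.30 for EGFL6 (thyroid gland) and 2.97 for STC1 (abdominal fat). EGF, epidermal growth factor, averaged 8.69 in the neurohypophysis, 3.23 in the adenohypophysis and 3.71 in the hypothalamus. DSE, which modifies dermatan sulphate, averaged 9.65, 5.61 and 5.13, and CD55, a brake on complement, 8.14, 5.67 and 3.70, in the same order of tissues.

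Of the 475 named genes higher in the neurohypophysis by at least 1 log2 unit (7.21% of those tested), 64 had their highest mean of the 16 tissues there, as did 189 of all 6592 named genes. Of the 508 genes lower by as much (7.71%), 189 had their highest mean in the hypothalamus, as did 387 of all 6592. A gene at its highest in either tissue is by definition above the other one. The counts among the selected genes are thus raised by the selection itself and are descriptive only. Besides the genes above, the 64 genes included DUSP6, a phosphatase of ERK kinases, at 10.21 (difference 3.49, adjusted p = 5e-06), ETV5, an ETS factor, at 9.11 (2.51, 6.6e-06), WNK4, a kinase of ion transport, at 7.85 (2.72, 5.8e-05) and S1PR1, a sphingosine phosphate receptor, at 11.26 (1.01, 0.0015), all chosen after their values were seen.

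WNT pathway genes differed in both directions. Of 15 genes, 7 (46.7%) were higher and 3 (20%) lower in the neurohypophysis. The receptor FZD5 had 12.31, 12.32, 12.26 and 12.20 in the neurohypophysis and 8.38, 7.98, 8.14 and 7.33 in the hypothalamus (difference 4.31 ± 0.16 SE, adjusted p = 4.2e-06), and its mean was the highest of the 16 tissues. SFRP1, a secreted binder of WNT ligands, had 11.25, 11.58, 11.03 and 10.75 in the neurohypophysis and 7.34, 7.95, 6.79 and 6.26 in the hypothalamus (4.07, 4.3e-06). The arrays of both tissues were far apart for each gene. The receptors FZD6 and FZD4 were higher by 1.98 and 1.19, while the WNT effector LEF1 and the inhibitors DKK3 and APCDD1 were lower, by -2.05, -1.98 and -1.76. Of 28 genes of BMP, TGF-beta and FGF signalling, 11 (39.3%) were higher and 5 (17.9%) lower. They included the ligand BMP7 at 2.11 and the receptors BMPR1B at -3.53 and FGFR2 at -1.72. Of 11 genes of the insulin-like growth factor axis, 4 (36.4%) were higher and 1 (9.09%) lower. The higher ones were the binding proteins IGFBP2 (3.08), IGFBP5 (2.40) and IGFBP6 (1.91) and the receptor IGF1R (0.44). IGF2 was called lower (-0.36, lost without any of 3 animals).

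Glial genes were mostly lower in the neurohypophysis. Of 22 genes of astrocytes and pituicytes, 16 (72.7%) were lower and 2 higher, with a median difference of -1.37. The glutamate transporter SLC1A2 had 4.38, 3.93, 5.06 and 3.85 in the neurohypophysis and 10.06, 10.51, 9.66 and 10.11 in the hypothalamus (difference -5.78 ± 0.30 SE, adjusted p = 1.4e-05). SLC1A3, the other astroglial glutamate transporter, differed by -4.51, the lipid binder FABP7 by -5.29, angiotensinogen (AGT) by -4.31 and apolipoprotein E (APOE) by -3.02. Some glial genes stayed high. S100B, a calcium binder of glia including pituicytes, had 10.64, 10.66, 10.39 and 10.61 in the neurohypophysis, 8.68, 9.35, 9.25 and 9.21 in the adenohypophysis and 12.06, 12.15, 11.32 and 12.10 in the hypothalamus (-1.33 from the hypothalamus, adjusted p = 0.00018). CLU, the chaperone clusterin, averaged 13.08 in the neurohypophysis, 12.47 in the adenohypophysis and 12.83 in the hypothalamus. Its difference from the hypothalamus did not pass (0.25, adjusted p = 0.088). VIM, the filament vimentin, had 12.61, 12.92, 12.73 and 12.85 in the neurohypophysis, 9.18, 10.31, 10.98 and 10.12 in the adenohypophysis and 10.58, 10.35, 10.62 and 10.01 in the hypothalamus (2.39 from the hypothalamus, adjusted p = 3.5e-05). DIO2, which activates thyroid hormone, had a far lower signal than S100B, CLU and VIM. It averaged 5.31 in the neurohypophysis, 5.30 in the adenohypophysis and 4.37 in the hypothalamus (0.93 from the hypothalamus, adjusted p = 0.0018). Its difference from the adenohypophysis did not pass (0.0031, adjusted p = 0.99). The filaments GFAP and VIM therefore differed in opposite directions.

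Myelin genes had the lowest median difference of the 30 lists. Of 18 genes of oligodendrocytes and myelin, 16 (88.9%) were lower and 0 higher in the neurohypophysis, and the median difference was -3.12. MBP, a main protein of compact myelin, had 4.95, 4.99, 8.69 and 6.70 in the neurohypophysis and 13.13, 13.31, 13.03 and 13.18 in the hypothalamus (difference -6.83 ± 0.61 SE, adjusted p = 0.00017). TF, transferrin, had 4.07, 4.07, 7.94 and 5.74 in the neurohypophysis and 12.55, 12.34, 12.28 and 12.63 in the hypothalamus (-7.00, 0.00017). The Iberian male was highest in the neurohypophysis for MBP, TF and MOBP and the Iberian female next, with both Large White pigs low. OPALIN, an oligodendrocyte membrane protein, did not show this order to the same extent, with 3.11, 3.03, 3.47 and 3.42 in the neurohypophysis and 11.13, 10.64, 10.59 and 10.77 in the hypothalamus (-7.52, 9.7e-07). The fatty acid hydroxylase FA2H (-6.08), the lineage factor OLIG1 (-5.89), the cytoskeletal gene ERMN (-5.61) and MAG (-5.15) followed. OMG, a myelin glycoprotein outside the list, differed by -6.46. ASPA and SOX10 did not pass. The SOX10 probe had means of 4.61 in the neurohypophysis and 4.70 in the hypothalamus and was brightest in blood.

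**Figure D3:**
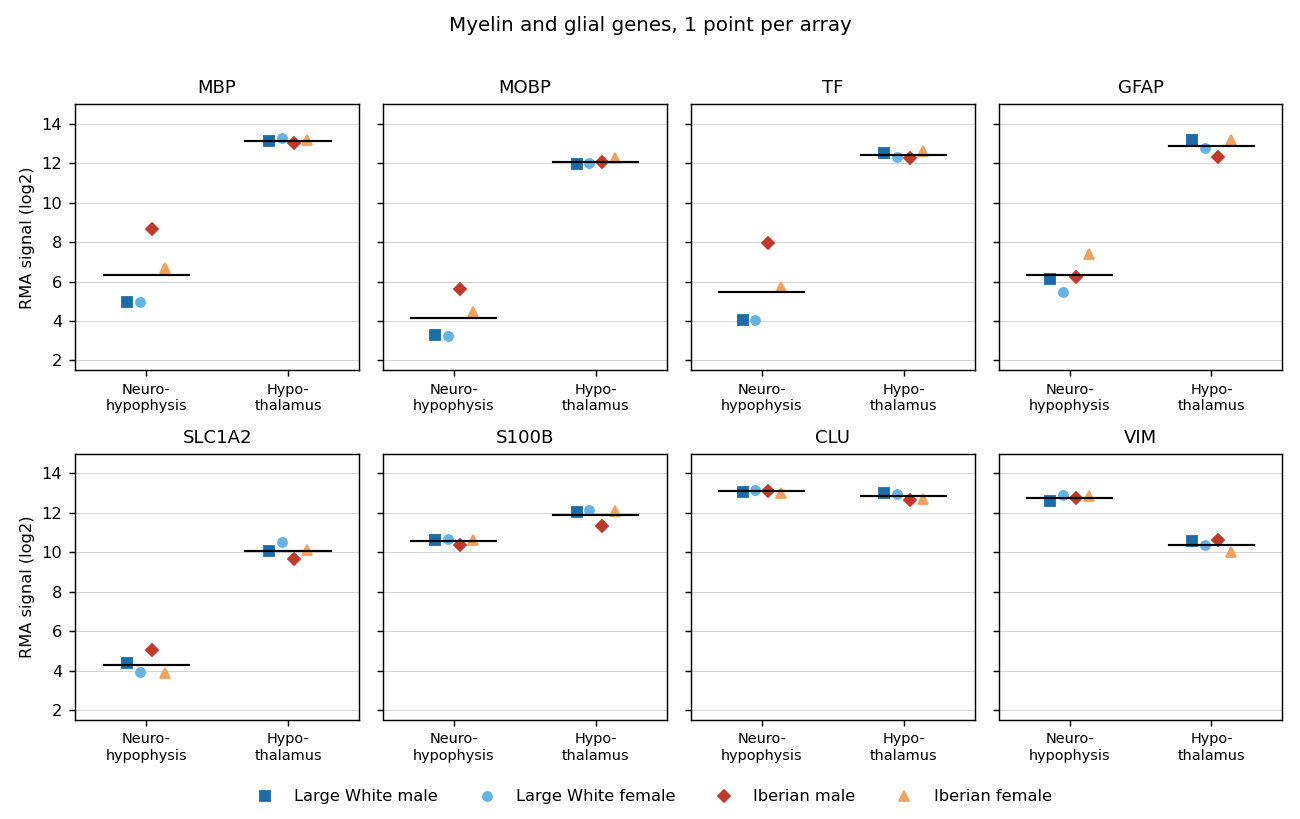
RMA signal (log2, vertical axis) of 8 myelin and glial genes in the neurohypophysis and the hypothalamus, 1 point per array, with bars at the mean of the 4 animals. MBP, MOBP, TF, GFAP and SLC1A2 are far lower in the neurohypophysis, where the Iberian male is highest for MBP, MOBP and TF, S100B is lower by 1.33, CLU differs by 0.25, and VIM is higher by 2.39.

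Genes of neurons were mostly lower in the neurohypophysis. Of 19 genes of neuronal structure and synapses, 17 (89.5%) were lower and 0 higher, with a median difference of -1.85. VSNL1, a neuronal calcium sensor, had 6.12, 5.46, 7.75 and 6.86 in the neurohypophysis and 12.06, 12.45, 12.15 and 12.03 in the hypothalamus (difference -5.63 ± 0.37 SE, adjusted p = 4.1e-05). STMN2, of growing axons, had 5.76, 6.16, 7.70 and 7.07 against 11.74, 11.89, 11.62 and 11.45 in the hypothalamus (-5.00, 4.7e-05). For both genes the Iberian male was highest and the Iberian female next in the neurohypophysis, as for MBP. The neurofilament NEFL (-3.72), the vesicle sensor SYT1 (-3.55) and the growth cone protein GAP43 (-3.31) were lower as well. SNAP25, of the vesicle fusion machinery, averaged 10.77 in the neurohypophysis, 11.34 in the adenohypophysis and 11.85 in the hypothalamus and differed from the hypothalamus by -1.08.

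Of 8 genes of transmitter synthesis and transport, 4 (50%) were lower and 1 (12.5%) higher. GAD2 and GAD1, which make GABA, differed by -5.10 and -3.40, and DDC, of dopamine and serotonin synthesis, by -2.44. MAOA, which degrades monoamines, was higher at 10.68 in the neurohypophysis and 9.31 in the hypothalamus (1.37, adjusted p = 0.00017), its highest mean of the 16 tissues. Of 14 transmitter receptors, 8 (57.1%) were lower and 1, DRD2, was higher. The lower ones were led by the GABA receptor subunit GABRA4 (-5.23) and included the melanocortin receptor MC4R (-1.79) and the opioid receptor OPRM1 (-1.83). Of 7 voltage-gated channel genes 2 (28.6%) were lower, near the 23.1% of all named genes. They were CACNB4 and CACNG3, by less than 1 log2 unit.

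The vasopressin and oxytocin genes, whose hormones are stored in the neurohypophysis but made in hypothalamic cell bodies, did not pass the test. AVP had 8.72, 9.64, 9.93 and 9.31 in the neurohypophysis, 5.11, 6.18, 4.94 and 5.15 in the adenohypophysis and 5.41, 7.72, 9.54 and 12.56 in the hypothalamus. OXT had 9.35, 10.18, 9.96 and 9.40 in the neurohypophysis, 5.80, 6.14, 5.79 and 5.71 in the adenohypophysis and 5.38, 7.39, 6.33 and 10.95 in the hypothalamus. The neurohypophysis arrays were close to each other for both genes, while the hypothalamus arrays spread over 7.15 log2 units for AVP and 5.57 for OXT, with the Iberian female highest and the Large White male lowest. Their differences from the hypothalamus were 0.59 ± 0.93 (SE, adjusted p = 0.66) for AVP and 2.21 ± 0.84 (adjusted p = 0.075) for OXT, and both genes were higher in the neurohypophysis in 3 of 4 animals. Without the Iberian female the differences were 1.87 (adjusted p = 0.04) and 3.46 (0.00043), and without the Large White male AVP was -0.31 (0.83). From the adenohypophysis AVP differed by 4.05 (adjusted p = 5.8e-06) and OXT by 3.86 (5.9e-07), and both genes had their highest mean of the 16 tissues in the neurohypophysis and the next in the hypothalamus. The other 3 of the 5 genes listed for the magnocellular neurons, which make these hormones, were lower in the neurohypophysis and 0 of the 5 passed as higher. They were PDYN, or prodynorphin (-4.64, adjusted p = 2.8e-05), and GAL and CARTPT, which also stand in the neuropeptide list.

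The other peptide genes of hypothalamic neurons were low in the neurohypophysis. Of 13 neuropeptide genes, 10 (76.9%) were lower and 0 higher, with a median difference of -2.40. PMCH, melanin-concentrating hormone of the lateral hypothalamus, had 3.48, 3.37, 3.28 and 3.01 in the neurohypophysis and 10.72, 10.43, 12.82 and 10.21 in the hypothalamus (difference -7.76 ± 0.40 SE, adjusted p = 1.4e-05). It was the gene with the widest gap between the hypothalamus and the next of the 16 tissues, 6.73 log2 units among named genes lower in the neurohypophysis. HCRT, the orexin precursor of the same region, had 6.22, 6.08, 6.21 and 6.19 in the neurohypophysis and 8.06, 8.20, 9.90 and 8.14 in the hypothalamus (-2.40, 0.00072). The Iberian male was the highest hypothalamus array for PMCH and HCRT. SST, somatostatin, had 3.59, 3.56, 3.61 and 3.59 in the neurohypophysis and 7.56, 9.71, 9.47 and 8.69 in the hypothalamus (-5.27, 3.4e-05). CCK differed by -3.96, ADCYAP1, or PACAP, by -3.48 and TRH by -3.26. CARTPT (-2.49), TAC3 (-2.37), GAL (-1.005) and GNRH1 (-0.90) passed as well, the last only with both Iberian animals, whereas AGRP, PNOC and NPY did not. Their signals were low in both tissues, neurohypophysis first, at 3.53 and 3.71 for AGRP, 4.05 and 4.18 for PNOC and 3.36 and 3.39 for NPY. Such low signals cannot show whether AGRP, PNOC and NPY differed. Of 4 hypothalamic transcription factor genes LHX1 (-1.11) and DLX5 (-0.70) were lower and MEIS2 was higher (2.42).

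**Figure D4:**
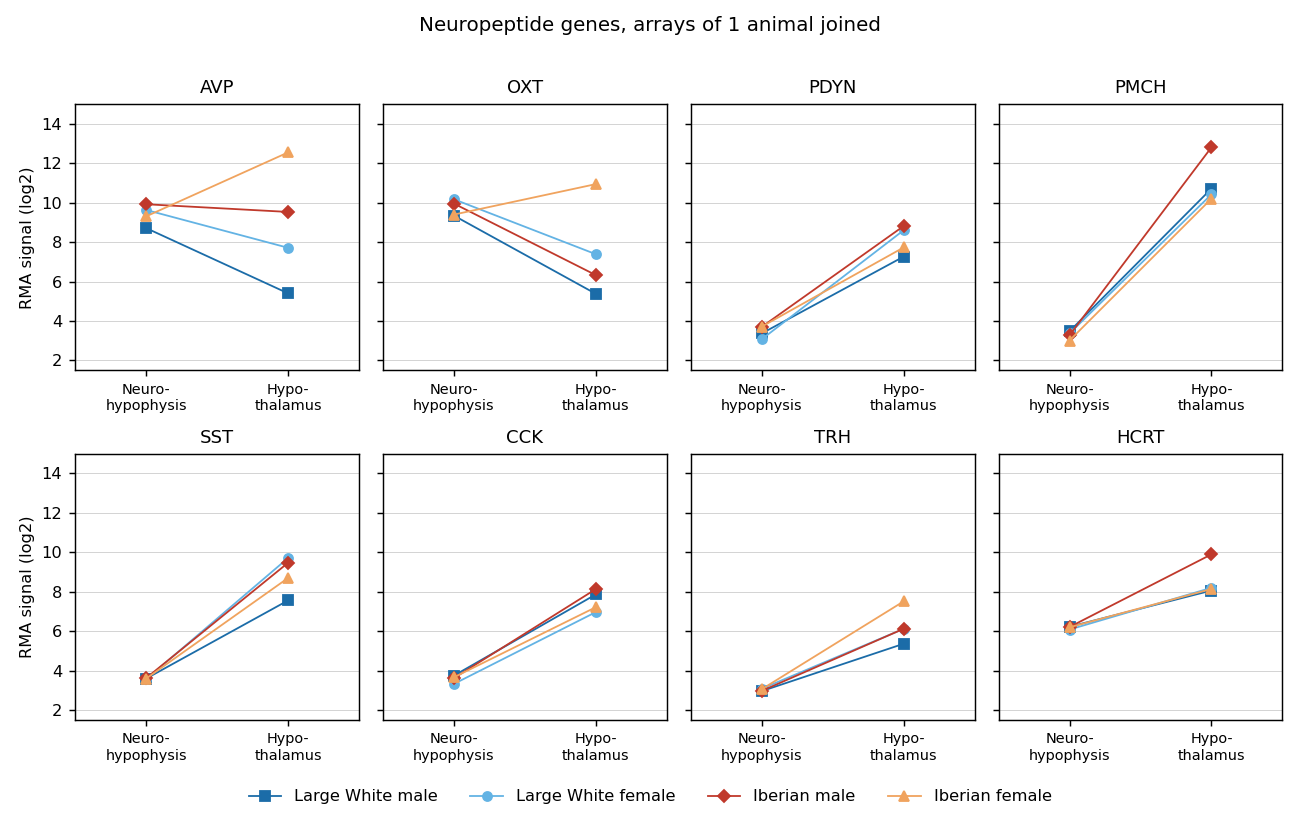
RMA signal (log2, vertical axis) of 8 neuropeptide genes in the neurohypophysis and the hypothalamus, with the arrays of 1 animal joined by a line. For AVP and OXT the lines slope in different directions between animals and the Iberian female is highest in the hypothalamus, while for PDYN, PMCH, SST, CCK, TRH and HCRT all 4 animals are lower in the neurohypophysis.

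Of 26 endothelial genes, 9 (34.6%) were higher and 5 (19.2%) lower in the neurohypophysis, near the shares over all named genes (25.9% and 23.1%). The junction molecule PECAM1 had 8.24, 8.47, 8.33 and 8.65 in the neurohypophysis and 6.67, 6.34, 6.57 and 6.43 in the hypothalamus (difference 1.92, adjusted p = 4.9e-05), and THBD (2.05), PROCR (2.002), TEK (1.70), CDH5 (1.17), VWF (1.07), ENG (1.04) and the water channel AQP1 (4.002), which is not confined to endothelium, were higher too. Lower were CLDN5, the tight junction claudin of brain vessels, with 6.25, 6.84, 7.22 and 7.37 in the neurohypophysis and 8.36, 8.51, 8.02 and 8.32 in the hypothalamus (-1.38, adjusted p = 0.0022), the lipid transporter MFSD2A (-1.77, 0.00029), the organic anion transporter SLCO1A2 (-0.73), the glucose transporter SLC2A1 (-0.72, lost without the Iberian female) and EDN1 (-0.47). ABCB1, an efflux pump, did not pass (-0.30, adjusted p = 0.2).

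Of 31 genes of fibroblasts and extracellular matrix, 21 (67.7%) were higher and 2 lower, with a median difference of 0.87. COL15A1, a basement membrane collagen, had 8.76, 8.48, 9.31 and 9.38 in the neurohypophysis and 4.63, 4.38, 4.71 and 4.94 in the hypothalamus (4.32, adjusted p = 1.6e-06), and the proteoglycan decorin (DCN) had 9.21, 9.45, 10.28 and 10.18 against 6.59, 6.43, 7.39 and 7.68 in the hypothalamus (2.76). The arrays of both tissues were well apart for both genes. MGP (3.33), LOXL1, an elastin cross-linker with its highest tissue mean in the neurohypophysis (2.83), FBN1 (2.56) and COL6A3 (2.51) were also higher, and TIMP2 and SPARC were lower, by -0.52 and -0.46. Of 12 genes of mural cells and smooth muscle 4 (33.3%) were higher and 4 (33.3%) lower, and without the Iberian female 2 in each direction. The largest of these differences, -5.96 for DES, came from a probe that was brightest in the hypothalamus among the 16 tissues, while the other DES probe was brightest in diaphragm muscle at 11.39 and had 4.92 in the neurohypophysis and 5.24 in the hypothalamus, so that the value is uncertain for desmin, a muscle filament. Of 12 blood cell genes 1 (8.33%) was called higher (HBM, 0.30), with overlapping arrays, and HBB did not pass.

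Genes of microglia and macrophages went both ways, with 5 of 16 (31.2%) higher, near the 25.9% of all named genes, and 7 (43.8%) lower. Without the animal as a block 3 were higher. P2RY12, a receptor of resting microglia, had 7.96, 8.29, 7.90 and 7.36 in the neurohypophysis and 9.23, 9.52, 9.83 and 9.38 in the hypothalamus (difference -1.61, adjusted p = 0.00027), and AIF1 differed by -1.34. CD163, a scavenger receptor of macrophages, had 6.23, 6.85, 7.37 and 7.94 in the neurohypophysis and 4.48, 4.40, 6.37 and 5.02 in the hypothalamus (2.03, adjusted p = 0.0013), where the Iberian male hypothalamus reached into the neurohypophysis range. MRC1, the mannose receptor, and the protease CTSC were higher by 1.69 and 2.22.

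Of 17 genes of the major histocompatibility complex (MHC) and antigen presentation, 11 (64.7%) were higher and 0 lower, with a median difference of 1.04. The arrays of both tissues were free of overlap for only 1 of the 17 genes, where 45.6% of named genes had no overlap. SLA-DRA, a class II chain, had 9.15, 9.70, 10.54 and 10.48 in the neurohypophysis and 6.10, 6.07, 10.11 and 7.04 in the hypothalamus (difference 2.64 ± 0.49 SE, adjusted p = 0.0048). CD74, the invariant chain, had 7.61, 8.18, 9.56 and 8.96 in the neurohypophysis and 5.71, 5.09, 9.31 and 6.18 in the hypothalamus (2.004, adjusted p = 0.0084, and 0.091 without the animal as a block). The hypothalamus of the Iberian male was at least 3 log2 units above the other hypothalamus arrays for these genes and overlapped with the neurohypophysis. Without this animal the differences were 3.37 for SLA-DRA and 2.59 for CD74. Without the Iberian female 7 of the 17 genes passed. SLA genes resemble each other in sequence, so single SLA probes may read more than 1 of them.

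The same array stood apart for interferon-induced genes, of which 3 of 16 (18.8%) were higher and 0 lower, below the 25.9% of all named genes. RSAD2, an antiviral enzyme, had 6.21, 6.88, 8.58 and 6.85 in the neurohypophysis and 4.95, 5.51, 8.85 and 4.99 in the hypothalamus, and ISG15, a ubiquitin-like protein, had 7.20, 8.19, 9.08 and 7.41 in the neurohypophysis and 7.53, 7.71, 10.48 and 7.17 in the hypothalamus. In both tissues the Iberian male was highest. Without this animal 9 of the 16 genes were higher in the neurohypophysis, where MX1 differed by 1.10 (adjusted p = 0.0028), against 0.74 (adjusted p = 0.065) with all animals. Without any other single animal, or without the animal as a block, 0 of the 16 genes passed.

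Immediate early genes, which respond within minutes to stimuli, were higher in 8 of 18 cases (44.4%) and lower in 4 (22.2%). FOS had 11.55, 9.36, 9.33 and 8.01 in the neurohypophysis, 10.28, 8.43, 8.87 and 7.86 in the adenohypophysis and 7.03, 7.31, 7.27 and 6.98 in the hypothalamus (2.41 from the hypothalamus, adjusted p = 0.007). EGR1 had 11.42, 9.23, 9.35 and 8.21 in the neurohypophysis, 10.58, 8.10, 8.51 and 7.54 in the adenohypophysis and 7.22, 7.44, 6.94 and 6.91 in the hypothalamus (2.43, adjusted p = 0.0034). The Large White male was highest in both lobes of the pituitary and the Iberian female lowest, whereas the hypothalamus arrays were alike. BTG2 was higher by 3.82 and DUSP1 by 1.04 (lost without the Iberian female, adjusted p = 0.052), and MYC, SGK1, NR4A3 and ATF3 were lower. Without the Large White male FOS differed by 1.71 and EGR1 by 1.84, both past the test. The paper gives a gap of some minutes between euthanasia and tissue collection, and its part in these values was not tested.

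Ribosomal protein genes were slightly and widely higher in the neurohypophysis. Of 47 genes, 38 (80.9%) were higher and 1 lower, with a median difference of 0.41. RPL3, for example, had 12.04, 12.10, 12.08 and 12.21 in the neurohypophysis and 11.04, 11.21, 11.36 and 11.24 in the hypothalamus (difference 0.90, adjusted p = 0.00033), and RPL37 was the gene called lower (-0.47), a call lost when any of 3 animals was left out. Genes of oxidative phosphorylation were lower, 21 of 32 (65.6%) with 0 higher and a median difference of -0.41. On the natural logarithm of the log2 values, an alternative scale, 17 of the 47 ribosomal genes passed as higher and 12 of the 32 oxidative phosphorylation genes as lower. NDUFA4, of the respiratory chain, had 10.55, 10.96, 10.74 and 10.84 in the neurohypophysis and 11.87, 11.95, 11.84 and 11.88 in the hypothalamus (-1.11, adjusted p = 0.00015), and SDHA differed by -0.88. Of 19 glycolysis genes 8 (42.1%) were lower, with the brain aldolase ALDOC at -2.11 and TPI1 at -1.04, and ENO3 was higher (1.40). Of 23 cell cycle genes 12 (52.2%) were higher and 1 lower, with CDC25B at 1.45, CCND2 at 1.42 and the inhibitor CDKN1B at 0.95, and CDKN1A lower at -0.48.

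Of 13 genes for thyroid and steroid hormone handling, 3 (23.1%) were higher and 1 (7.69%) lower. Both shares were below those over all named genes (25.9% and 23.1%). HSD11B1, which regenerates active glucocorticoid, had 10.94, 11.49, 11.83 and 11.28 in the neurohypophysis, 10.05, 10.07, 9.85 and 9.81 in the adenohypophysis and 7.78, 8.01, 7.67 and 7.82 in the hypothalamus. It was the second highest tissue mean after liver, and the difference from the hypothalamus was 3.56 ± 0.16 (SE, adjusted p = 8.7e-06). DIO2 and the thyrotropin receptor TSHR (0.9997) were the other higher genes and the thyroid hormone receptor THRA (-0.48) the lower one. The THRA call was lost with the mean of all its probes (-0.19, adjusted p = 0.14).

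**Figure D5:**
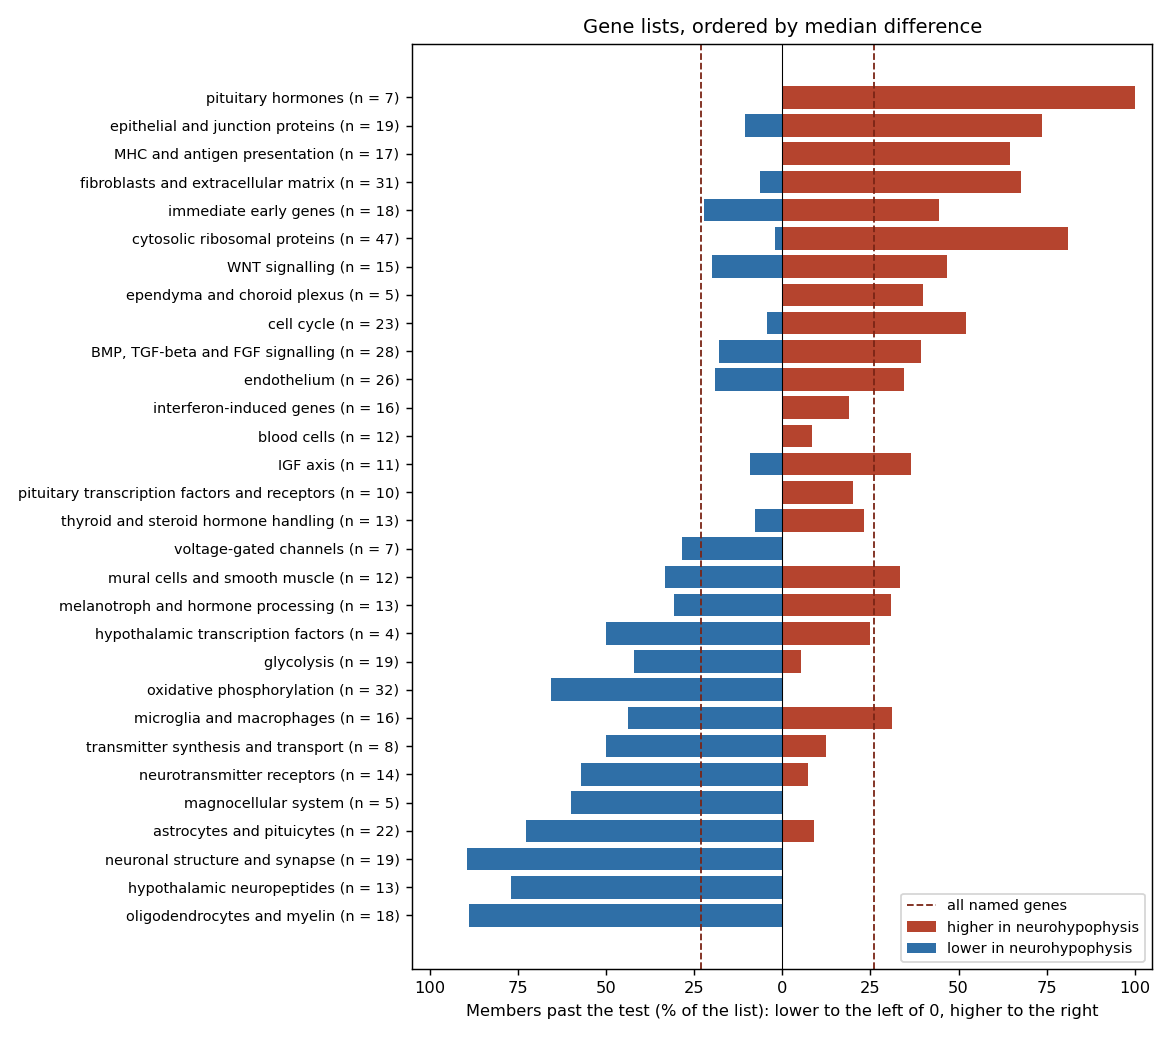
Share of each gene list (percent of its members, horizontal axis) called higher in the neurohypophysis (right of 0) or lower (left of 0) than in the hypothalamus, with lists ordered by median difference and dashed lines at the shares over all named genes, 25.9% higher and 23.1% lower. Pituitary hormones lie at the top with 7 of 7 higher, and oligodendrocytes and myelin at the bottom with 16 of 18 lower.

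Whether the difference between tissues itself differed between breeds or sexes was tested on the 4 within-animal differences, with 2 animals on each side. By limma 0 of 23935 probes passed for breed and 0 for sex, with 1208 and 1043 probes at an unadjusted p under 0.05. When all 64 arrays were fitted together, 2 probes passed for breed and 6 for sex. Among them were AVP, whose tissue difference was larger in Large White than in Iberian pigs by 4.04 (adjusted p = 1.9e-05) and in males than in females by 2.51 (0.013), and TSHB, at -1.58 for males minus females (0.013). That fit takes its spread from all 16 tissues. On the within-animal differences limma gave an adjusted p of 0.91 (breed) and 0.94 (sex) for AVP and of 0.94 (sex) for TSHB. The orders of single animals given above are descriptions of 1 array each.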

How the data were processed

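Total RNA of 16 tissues from 4 pigs was hybridised to 64 Affymetrix porcine arrays. The authors scanned with GCOS, the tool named in the submitters' processing notes, ran a quality check with the Affy package and applied RMA to all 64 arrays at once with libaffy. Versions of these tools: not given in the sources used here. Log2 RMA signals of 24123 probe sets were deposited as a single matrix, each of whose columns has its sample. They ran between 1.99 and 14.31 over the 8 arrays, and the number of arrays limits their precision. The paper's methods add a logarithm after RMA, which was run as an alternative.

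Control probe sets (188) were left out. Gene symbols, some of them old, are those of GEO's platform annotation: 10110 pig probes had 1 symbol, 157 several and 13668 none, 9961 were found in RefSeq through their Entrez number, and 0 symbols changed. LOC numbers were not used as names. A gene was read from its brightest probe, and 41 genes had probes called in both directions.

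Tissues were compared in R 4.3.3 with limma 3.58.1 (lmFit and eBayes, two-sided, animal as a block, Benjamini-Hochberg over 23935 probes, threshold 0.05). The animals pair the arrays because both tissues came from the same pig, and deviations from the tissue means correlated at 0.35 to 0.406 within an animal and at -0.28 to 0.051 between animals. The values between animals are partly set by those within an animal, because the deviations of each tissue cancel out over its 4 animals. Each group is 4 separate animals. In simulated data for this comparison (23935 probes, 50 shifted per size) the fit recovered 18% of shifts of 0.5, 72% of 1, 94% of 2 and 100% of 4 log2 units. The real data had far more differing probes, with 9782 called, and the adjusted p is then less strict. These rates therefore do not give the sensitivity of the real fit. Scan dates were not used here. Tables were made in Python 3.11.15 with numpy 2.4.6 and pandas 2.3.3, and figures with matplotlib 3.10.9.

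The members and the 30 gene lists (907 entries, 500 with a named probe) were chosen with earlier results of these data known. The genes named are POMC, GFAP and MOBP, the 15 largest differences in each direction among called genes with 4 animals of the same sign, up to 6 called members of each list with the largest differences, and all members of the hormone, magnocellular and neuropeptide lists. Others are named as the remaining members of a list, and VIM, CLU, S100B, OMG and further single genes were chosen after their values were seen.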

Additional observations from a re-analysis of the deposited data

Results flagged for a closer look

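In 390 groups of 4 arrays, from the 195 genes with values per array, 1 array lay far from the other 3 in 28 groups, where chance alone gives about 1 in 20. Of these, 12 were hypothalamus arrays of the Iberian male, and that array stood high for ISG15 (10.48), IFIT1 (9.01), RSAD2 (8.85), SLA-DRB1 (9.49), HCRT (9.90), IGF2 (7.84), IGFBP2 (6.65) and PRL (4.59) and low for S100B (11.32), IAPP (6.62), COX5B (10.98) and MAOA (9.22). In the neurohypophysis the same animal was low for GH1 (5.84) and high for TTR (5.17).

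The Large White male stood apart in the neurohypophysis for DUSP1 (10.23), CCND2 (9.25), SDHA (9.13), GHRHR (5.67) and OMG (2.92), each at the high end, and in the hypothalamus for GNAS at the low end (4.36). The Large White female was apart in the neurohypophysis for DSE (9.94), CHGB (11.9957) and PCSK2 (8.43) and in the hypothalamus for GAL (4.72) and MAP2 (11.41). For the Iberian female the values were FA2H in the neurohypophysis (3.71) and OLIG1 (8.65) and HBB (8.325) in the hypothalamus. Some of these arrays lie close to the others, as for FA2H, whose other neurohypophysis arrays had 3.43 to 3.46.

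The 2 tissues differed in opposite directions between the sexes for ISG15 and between the breeds for SOX10. The difference of the tissue contrast was -1.22 for ISG15, males minus females (adjusted p = 0.94 by limma), and 0.45 for SOX10, Large White minus Iberian (adjusted p = 0.97), so that neither passed the test.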

How the results depend on the processing

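With 1 animal left out at a time, 4210 to 4690 probes were called higher and 3668 to 3956 lower in the neurohypophysis than in the hypothalamus, and 1315 to 1495 and 1568 to 1647 by at least 1 log2 unit. Against the adenohypophysis the ranges were 3140 to 3552, 2741 to 3294, 1002 to 1117 and 653 to 757. Without the replicate block, 4665 probes were higher and 4102 lower than in the hypothalamus. Other changes of call without the block were B2M, CD74, IFI44L, IFIT1, IGF2, HBM, RSAD2 and, as a gain, LDHA, and POMC and GNAS against the adenohypophysis. A fit of all 64 arrays with tissue, breed and sex gave 2469 probes higher and 2264 lower than in the adenohypophysis and, with terms for tissue by breed and tissue by sex added, 2 probes whose tissue contrast differed by breed and 6 by sex. With all 64 arrays OXT was called (adjusted p = 4.5e-05, limma) and PCSK1 was not (0.13). The cause was not tested. Among single genes, 1551 of the values under these and the other alternatives kept direction and call, 39 lost and 10 gained it. Leaving out 1 animal kept 811, lost 33, gained 8 and turned the sign of 8, none of them called in the full fit. Those were AVP (-0.31 to 1.87), ISG15 (-0.49 to 0.13), NPY (-0.073 to 0.079), PAM (-0.094 to 0.12) and, against the adenohypophysis, IAPP (-0.041 to 0.017). Under the alternatives that kept all 4 animals, 446 counts over gene lists stayed within 1.5 times and 34 did not, most of them counts of 1 or 2 genes. With 1 animal left out, 217 such counts stayed within that range and 23 did not. Beside those given with the results, all 64 arrays left 2 of 4 processing genes and 1 of 4 immediate early genes lower, probes of mean 5 or more left 4 of 8 transmitter receptors, 3 of 5 endothelial and 0 of 2 hypothalamic transcription factor genes lower, and no block left 3 of 5 microglial genes higher. Without the Iberian female, 2 of 4 mural genes passed in each direction, and without the Large White female 2 of 4 immediate early genes were lower. Between 52.1% and 54.5% of called probes were higher under the alternative scalings. With 4 animals and few shifted probes, 18% of simulated shifts of 0.5 log2 units were recovered, which does not give the sensitivity of the real fit. RMA values give no detection call, so signal over background is unknown.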
